A study of Sus scrofa with 20 samples.

Results

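The transcriptome of epicardial adipose tissue, the fat that lies directly on the heart, was described in Ossabaw pigs that ate the Heart Healthy diet and received no atorvastatin (HHD). The group was taken from the diet label, where 6 of the 20 libraries of the series read Heart Healthy alone. The remaining libraries came from pigs given atorvastatin, an inhibitor of cholesterol synthesis, with the same diet (HHD+S, 6 libraries) or with a diet labelled atherogenic (WD+S, 8 libraries), and they entered only the scaling. The series design describes the Heart Healthy diet as one of unsaturated fat, unrefined grain, fruit and vegetables, and the pigs as a miniature breed of which boars and gilts were randomised to diets. Age, sex, time on diet and the site of dissection are not given per library in the labels used here. Each library comes from whole tissue, so fewer cells of a type and less RNA per cell cannot be told apart in any value below. The titles carry different numbers, but no label states that the libraries are separate animals, so the spread between them may be technical in part. Replicate numbers 1 to 6 follow the order of deposit and have no rank.

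Epicardial fat shares its blood supply with the heart muscle and is not separated from it by a fascia. White fat cells store triglyceride, release it as fatty acids through a chain of lipases, and secrete hormones such as adiponectin and leptin. The depot is covered by mesothelium, the epithelium of the serous sac around the heart, and is crossed by coronary branches, nerves and ganglia of the heart. A piece of it can thus hold fat cells, fibroblasts, vessels, mesothelium, immune cells, nerve and heart muscle.

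Levels are given on 2 scales. CPM is a gene's unique exon reads scaled to a common library size, computed from the deposited counts with library sizes scaled by TMM, and is used to compare libraries. RPKM, which also divides by gene length, is the authors' value from their other table of 10157 rows and is used to compare genes. For list genes absent from the exon table, or below 1 CPM in it while at or above 1 CPM in the other, the CPM is that of the other table; this applied to 83 of 460 list members found. Means are given with SD over n = 6 libraries. A range names the lowest, median and highest library. Variation is the SD over libraries of log2 CPM, to which a prior count of 2 was added. Genes with a mean of at least 5 CPM were called variable where that SD was at least 1. By this rule 1.60% of the 9862 rows at 5 CPM or more were variable, which is the share to hold beside the counts of variable list members below. No group was tested against another.

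The 6 libraries held between 3489991 and 5228381 counts (median 3968665), so 1 count was worth 0.191 to 0.287 CPM. Of 22861 rows, 12512 had a mean of at least 1 CPM and 9862 of at least 5 CPM. Correlations of log2 CPM between pairs of libraries over the latter rows lay between 0.913 and 0.966 across genes, and no pair differed as little as counting alone would give (mean chi-square per gene 11.6 to 36.7). The file names give the digit 1 to replicates 1 to 4 and the digit 2 to replicates 5 and 6, and mark replicate 2 alone with the letter B. They also carry a mark that starts with C, called the C mark here. It is C1 for replicates 1 and 3, C2R for replicates 4 and 6, C3 for replicate 5 and C4 for replicate 2. No label explains these marks. XIST, the RNA by which female cells shut down an X chromosome, gave 5039, 3894, 1437, 4870, 3396 and 1 reads in replicates 1 to 6. Reads of the Y-linked gene DDX3Y, a helicase, were 0, 0, 443, 1, 87 and 632. Replicates 1, 2 and 4 thus carried XIST with at most 1 DDX3Y read, replicate 6 carried Y-linked reads with 1 XIST read, and replicates 3 and 5 carried both. The same held for KDM5D, a histone demethylase, with 172 reads in replicate 3, 24 in replicate 5, 145 in replicate 6 and 0 elsewhere. How replicates 3 and 5 came to hold both was not tested. Among the genes named below, leaving both out moved the mean CPM of PCK1, ANGPTL4 and UCP3 by more than 1.5 times, and those values are given beside them.

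A small number of genes held much of the RNA. Between 416 and 507 rows sufficed for 50% of the counts of a library (468 ± 39.4), and the 10 most abundant rows of each took 14.6% ± 1.33. Transcripts of the mitochondrial genome made up 12.6% ± 1.59 of counts, between 10.7% and 14.5%. The first of them, MT-CO1, which encodes a subunit of cytochrome c oxidase, averaged 37977 ± 7401 CPM. Among rows of the exon table outside the mitochondrial genome, the most counted was COL3A1, the chain of type III collagen, at 14677 ± 2399 CPM with a range of 11737, 14659 and 18519.9 CPM. The row EF1ALPHA, an elongation factor of translation, followed with 12922 ± 1679 CPM, and the intermediate filament gene VIM with 7520.4 ± 1369 CPM. Some abundant genes have no row of their name in that table, and in the other table GSN had 16422 ± 5926 CPM and ADIPOQ 7592 ± 1737 CPM.

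Per length, the order outside the mitochondrial genome began with EEF1A1, which encodes the same elongation factor, at 7257 ± 952 RPKM. GSN, which encodes the actin-severing protein gelsolin, stood at 6503 ± 2263 RPKM, lowest in replicate 2 and highest in replicate 3. The actin-binding thymosin gene TMSB4X stood at 4628 ± 961 RPKM and the fatty acid carrier gene FABP4 at 4371 ± 1150.1 RPKM (rank 9). Iron storage (FTH1, 3829 ± 362 RPKM), the cytoskeleton (VIM, 3414 ± 547 RPKM) and collagen (COL3A1, 3265 ± 483 RPKM, rank 12) came next. The calcification inhibitor gene MGP, the matrix gene SPARC and the proteoglycan gene DCN followed among the 20 highest, at 3220.2 ± 732, 2585 ± 193 and 2302 ± 185 RPKM. Neighbours in this order such as EEF1A1 and GSN, or VIM and COL3A1, lay within the SD of each other. Over the 8300 rows of the table with any RPKM the median was 10.3 RPKM, 590 rows exceeded 100 RPKM and 52 exceeded 1000 RPKM.

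Replicate 3 stood apart in ribosomal protein genes. Genes of ribosomal proteins took 3.16% of its counts against 5.14% to 5.64% in the other 5 libraries. RPS15A stood at 1215 RPKM there against at least 2146 RPKM elsewhere, and TMSB4X at 2806 RPKM against at least 4431 RPKM. Among 6168 rows sorted by relative length, the longest of 4 equal bins differed from the other libraries by a median log2 of 0.17 in replicates 1 and 6, -0.16 in replicate 4 and -0.11 in replicate 3. The shortest bin differed by -0.12 in replicate 1, 0.15 in replicate 4 and 0.01 in replicate 3. The part of RNA quality and library preparation in these values was not tested.

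**Figure D1:**
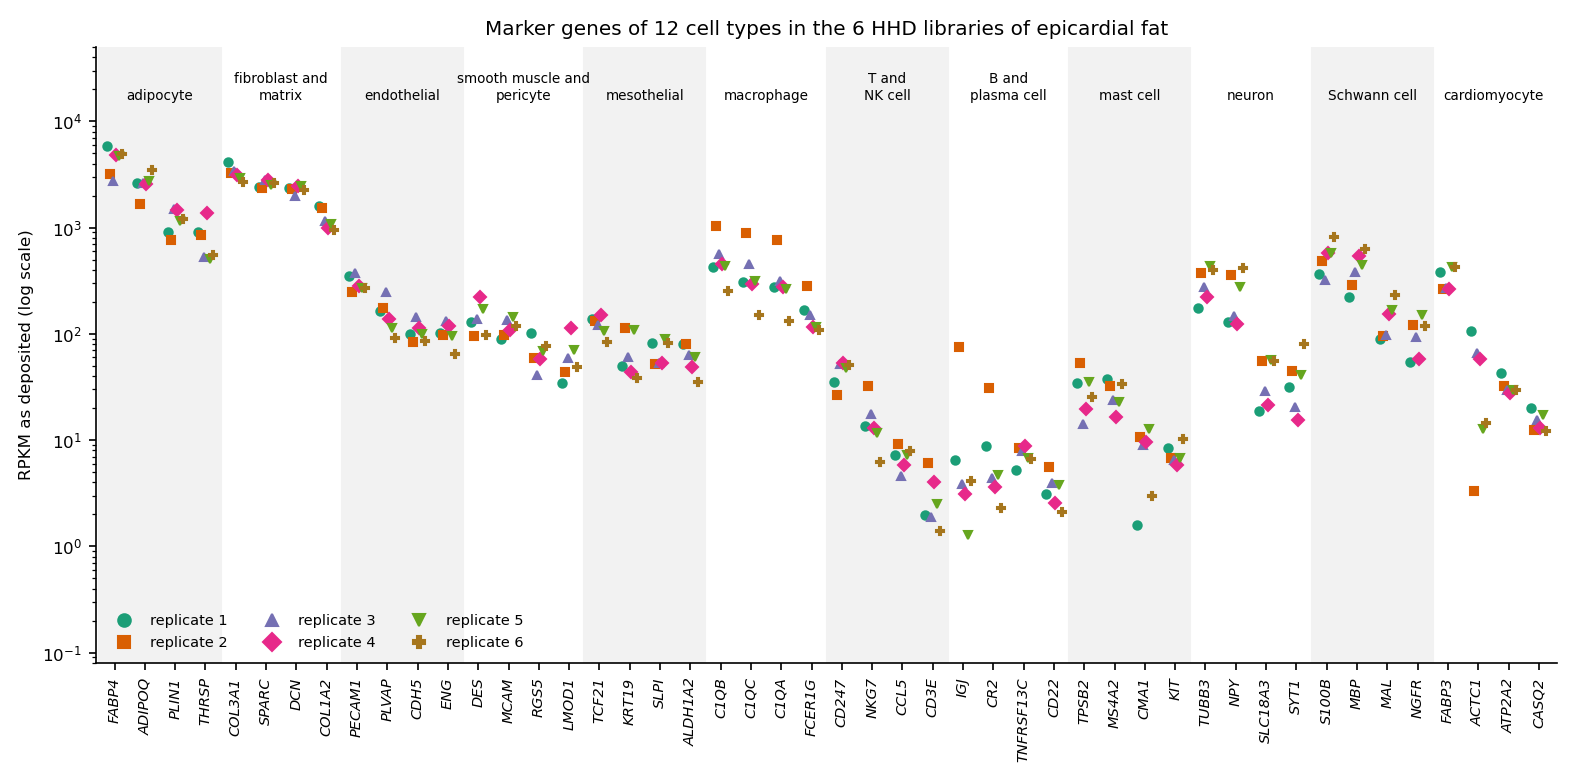
RPKM (log axis) of the 4 members of highest mean RPKM in each of 12 cell type lists, with a point for each HHD library. The fat cell and matrix genes shown lie at or above 509 RPKM (THRSP) in every library, PECAM1 between 247 and 377 RPKM, neuronal TUBB3 between 173 and 435 RPKM, and T cell genes at most at 53.0 RPKM (CD247).

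The defining fat cell genes were high in every library. ADIPOQ, which encodes the hormone adiponectin, averaged 2609 ± 565 RPKM and ranked 15 of 10157 rows. PLIN1, the coat protein of the lipid droplet, averaged 1161 ± 294 RPKM (rank 45). Of 19 fat cell identity genes, 18 reached 1 CPM. The exception was ADRB3, the adrenergic receptor of fat known best from rodents, at 0.234 ± 0.194 RPKM. Over the 17 members with an RPKM, ADRB3 included, the median was 129 RPKM, beside 10.3 RPKM over the 8300 rows with any RPKM.

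ADIPOQ ranged from 4648 through 7692 to 10112 CPM, with replicate 2 lowest, replicate 6 highest and the other 4 between 7598 and 7812 CPM. PLIN1 ranged from 774 through 1242 to 1802 CPM, with replicates 2 and 1 low and replicates 3 and 4 high. These genes ranked the libraries differently, though replicate 2 was lowest for both. LEP, the satiety hormone leptin, ranged from 15.2 through 26.2 to 55.9 CPM and was highest in replicate 4. CIDEC, which fuses lipid droplets into a single large droplet, ranged from 221 through 238 to 419.9 CPM, and PPARG, the master transcription factor of fat cells, from 114 through 160.3 to 284 CPM. Both were also highest in replicate 4. THRSP, a lipogenic regulator, averaged 786 ± 329 RPKM and ADIRF, a small adipogenesis factor, 772 ± 227 RPKM.

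For uptake and release of fat, all 16 listed genes were measured. LPL, the lipase that frees fatty acids from lipoproteins, averaged 766 ± 189 RPKM, the fatty acid carrier gene FABP5 836 ± 284 RPKM and the fatty acid receptor gene CD36 355 ± 65.5 RPKM. The 3 lipases that act in sequence on stored triglyceride were PNPLA2 at 365 ± 163, LIPE at 239 ± 132 and MGLL at 104 ± 30.4 RPKM. LIPE, hormone-sensitive lipase, ranged from 281 through 774 to 1652 CPM, and PNPLA2 from 379 through 725 to 1268 CPM. Both were lowest in replicate 2 and highest in replicate 3.

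For synthesis, 15 of 16 listed genes had a row and all 15 were measured. The desaturase gene SCD averaged 549 ± 242 RPKM, DGAT2, which makes triglyceride, 568 ± 194 RPKM, and the fatty acid synthase gene FASN 282 ± 158 RPKM. FASN ranged from 1055 through 1390.4 to 3937 CPM and SCD from 913 through 2744 to 3917 CPM. Replicate 4 was highest for FASN, SCD, DGAT2, ACLY, ACACA and ME1, which were picked from the 15. How many of the other members were highest there was not counted. The mean log2 CPM of the list was 8.13 in replicate 4 and between 7.30 and 7.59 in the other 5 libraries.

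A small set of fat cell genes split the libraries differently from the markers. PCK1, which makes glycerol backbone for triglyceride, stood at 267, 486 and 257 CPM in replicates 1, 3 and 5 and at 23.2, 63.8 and 19.2 CPM in replicates 2, 4 and 6. It was the most variable member of the fat cell list (SD 1.97). ANGPTL4, a secreted inhibitor of LPL, stood at 536, 1020.4 and 830.4 CPM in the former libraries and at 132, 264 and 130.1 CPM in the latter. UCP3, a mitochondrial carrier induced by fatty acids, stood at 73.1, 179.8 and 145 CPM against 21.4, 34.1 and 42.7 CPM. In none of these genes did the sets of 3 libraries overlap, and the sets were seen in the values, so no test applies. How many of all rows separate the same sets was not counted, so the split is not shown to be particular to these genes. No C mark of the file names was divided between the sets, with C1 and C3 in the high set and C2R and C4 in the low set. Whatever that unexplained mark stands for and these levels cannot be told apart.

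G0S2, an inhibitor of PNPLA2, had the opposite order, at 45.9, 30.5 and 19.4 CPM in replicates 2, 4 and 6 and 8.35, 16.1 and 7.88 CPM in replicates 1, 3 and 5. PDK4, which blocks the use of pyruvate for oxidation, followed neither order, at 148 CPM in replicate 2, 510.0 CPM in replicate 4 and between 1249 and 1787 CPM in the other 4. The high set for PCK1 holds both libraries with XIST and Y-linked reads. Without replicates 3 and 5, PCK1 averaged 93.2 ± 117 CPM in place of 186, ANGPTL4 266 ± 191 CPM in place of 486, and UCP3 42.8 ± 22.0 CPM in place of 82.7, with replicate 1 the only high library left.

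**Figure D2:**
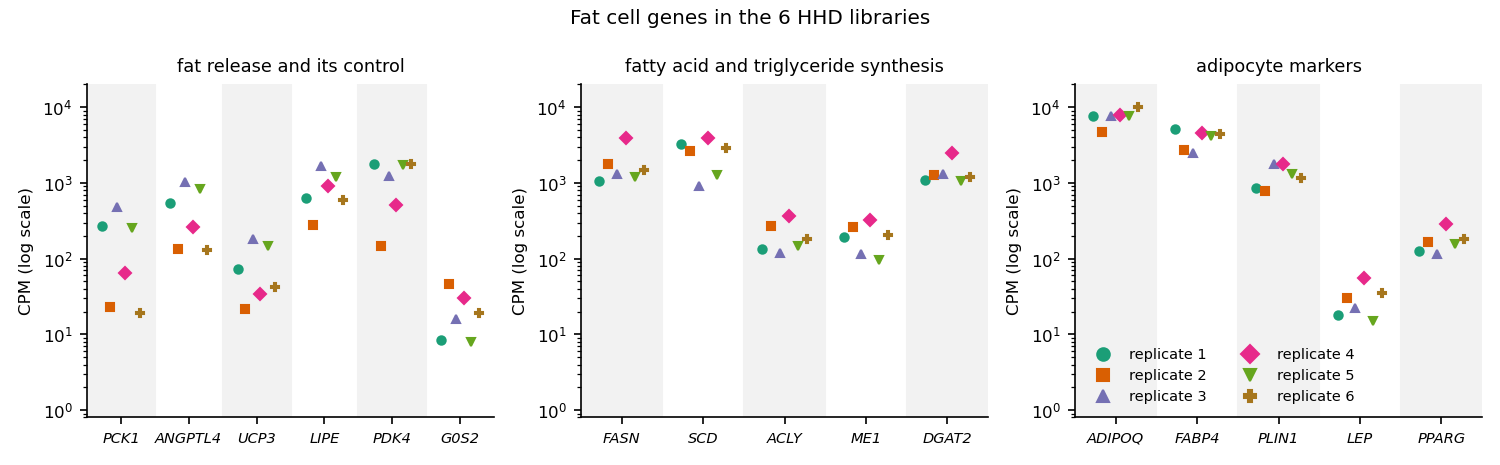
CPM (log axes) of fat cell genes, with a point for each HHD library. PCK1, ANGPTL4 and UCP3 are high in replicates 1, 3 and 5 and low in 2, 4 and 6, and replicate 4 is highest for FASN, SCD, ACLY, ME1 and DGAT2.

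Genes tied to heat production ranged widely. Of the 17 with a row, 13 reached 5 CPM, and the median was 8.25 RPKM over the 12 members with an RPKM. CIDEA, a lipid droplet protein of brown fat in rodents and of white fat in larger mammals, was the highest per length at 373 ± 88.2 RPKM (rank 132). The creatine kinase gene CKB averaged 84.4 ± 25.3 RPKM and the mitochondrial carrier gene UCP2 40.6 ± 7.60 RPKM. PPARGC1A, a driver of mitochondrial gene expression, averaged 1.03 ± 0.441 RPKM and DIO2, which activates thyroid hormone, 1.00 ± 0.548 RPKM. ELOVL3 and ZIC1, brown fat genes of the mouse, had no read in any of the 6 libraries. No row was matched to UCP1, which is known not to be functional in pigs.

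Among secreted products of fat, AGT, the precursor of angiotensin, was second to ADIPOQ at 1324 ± 518 RPKM (rank 36). It ranged from 1354 through 2562 to 3821 CPM with replicate 2 lowest and replicate 3 highest. CFD, the complement protease adipsin, averaged 360.5 ± 143 RPKM, the chemoattractant gene RARRES2 299 ± 107 RPKM and the Wnt inhibitor gene SFRP5 298 ± 111 RPKM. The chemokine gene CCL2 averaged 124 ± 42.0 RPKM, whereas IL6 and TNF, cytokines of inflammation, averaged 14.6 ± 12.3 and 3.35 ± 2.27 RPKM. For GDF15 the deposited RPKM was 217 ± 88.1 with no unique read in any library, so that value rests on reads that the count column leaves out.

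As a list, stromal genes were even across libraries, but single members were not steadier than other genes. The median SD of log2 CPM was 0.34 over the members and 0.32 over all rows at 5 CPM or more. All 30 fibroblast and matrix genes were measured, their median was 236 RPKM over the 22 members with an RPKM, and the mean log2 CPM of the list varied by an SD of 0.15 between libraries, the lowest among the cell type lists. COL1A2 and COL1A1, the chains of type I collagen, averaged 1213 ± 279 and 1056 ± 330.2 RPKM. The collagenase gene MMP2 averaged 554 ± 103 RPKM, its inhibitor TIMP2 509.7 ± 92.0 RPKM and the surface glycoprotein gene THY1 446 ± 71.5 RPKM. DCN had the lowest SD in the list, from 3903 through 4285 to 4988 CPM. FN1, the adhesion protein fibronectin, had the highest, from 2096 through 3480.2 to 12087 CPM with its high value in replicate 2. Without that library FN1 averaged 3234 ± 1057 CPM.

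COL1A2 and COL3A1 were highest in replicate 1 and lowest in replicate 6. PDGFRA, the receptor that marks fat progenitors and fibroblasts, gave 12.4 ± 7.95 CPM in the exon table but 209 ± 51.1 CPM in the other table. COL1A1 likewise gave 476 ± 129 and 6413 ± 1909.7 CPM. The level of such genes depends on the table, and of 4467 genes with 1 row and at least 1 CPM in both, 56.4% had mean CPM within 1.5 times of each other. All 12 basement membrane genes were measured, led by COL15A1 at 352 ± 63.1, COL4A1 at 259 ± 73.6 and COL4A2 at 165 ± 57.8 RPKM. Their list was lowest in replicate 2 and highest in replicate 3, as was COL4A1, from 597 through 1007 to 1520.1 CPM.

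Vessel genes were present throughout. PECAM1, the junction protein of endothelium, averaged 300.1 ± 52.1 RPKM (rank 178) and ranged from 793 through 926 to 1258 CPM, highest in replicates 1 and 3. PLVAP, of the diaphragms of fenestrated capillaries, averaged 155 ± 55.2 RPKM, the cadherin gene CDH5 104 ± 22.0 RPKM and the clotting protein gene VWF 98.2 ± 25.3 RPKM. All 20 endothelial genes were measured and none was variable by the rule. As a list they were highest in replicate 3 and lowest in replicate 6, with a mean log2 CPM of 6.89 and 5.88.

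All 7 lymphatic genes were measured. CCL21, the chemokine of lymphatic vessels, averaged 123 ± 46.9 RPKM and the hyaluronan receptor gene LYVE1 55.2 ± 17.0 RPKM. Vessel walls gave ACTA2, smooth muscle actin, at 995, 1465 and 2584 CPM and TAGLN, its partner transgelin, at 919, 1233 and 1810.0 CPM, both high in replicates 4 and 5. DES, the muscle filament desmin, averaged 142 ± 48.6 RPKM, the pericyte gene RGS5 67.5 ± 20.7 RPKM and the adhesion gene MCAM 115 ± 21.6 RPKM. No row was matched to MYH11.

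Some mesothelial genes divided the libraries. UPK3B, a plaque protein of mesothelium, stood at 63.3, 87.2, 34.1 and 69.8 CPM in replicates 1, 2, 3 and 5 and at 4.67 and 1.08 CPM in replicates 4 and 6. MSLN, mesothelin, stood at 23.5, 56.7, 13.8 and 31.8 CPM in the former and 2.03 and 1.35 CPM in the latter. The same 2 libraries were lowest for BNC1, a transcription factor of mesothelium, at 0.203 and 0.270 CPM against at least 4.68 CPM. They were also lowest for the mucin gene MUC16, at 2.03 and 0.270 CPM against at least 13.6 CPM. Replicates 4 and 6 are the libraries with the C mark C2R, so whatever that unexplained mark stands for and these low values cannot be told apart.

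Of 16 mesothelial genes with a row, 14 were measured, and 5 of the 13 at 5 CPM or more were variable, beside 1.60% over all rows at that level. WT1, a regulator of epicardial development, ranged from 3.25 through 9.41 to 84.1 CPM with replicate 2 highest. The other members at 5 CPM or more were not variable by the rule. They included KRT19, KRT8, KRT18, SLPI and PKHD1L1, as well as genes of the epicardium that are also used by stromal cells. TCF21, a transcription factor of epicardium and fibroblasts, averaged 122 ± 24.2 RPKM, and ALDH1A2, which makes retinoic acid, 61.3 ± 17.7 RPKM. TBX18, another epicardial factor, ranged from 72.5 through 104 to 148 CPM. Without replicates 3 and 5, UPK3B averaged 39.0 ± 42.9 CPM and MSLN 20.9 ± 26.0 CPM, still with replicates 4 and 6 low.

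**Figure D3:**
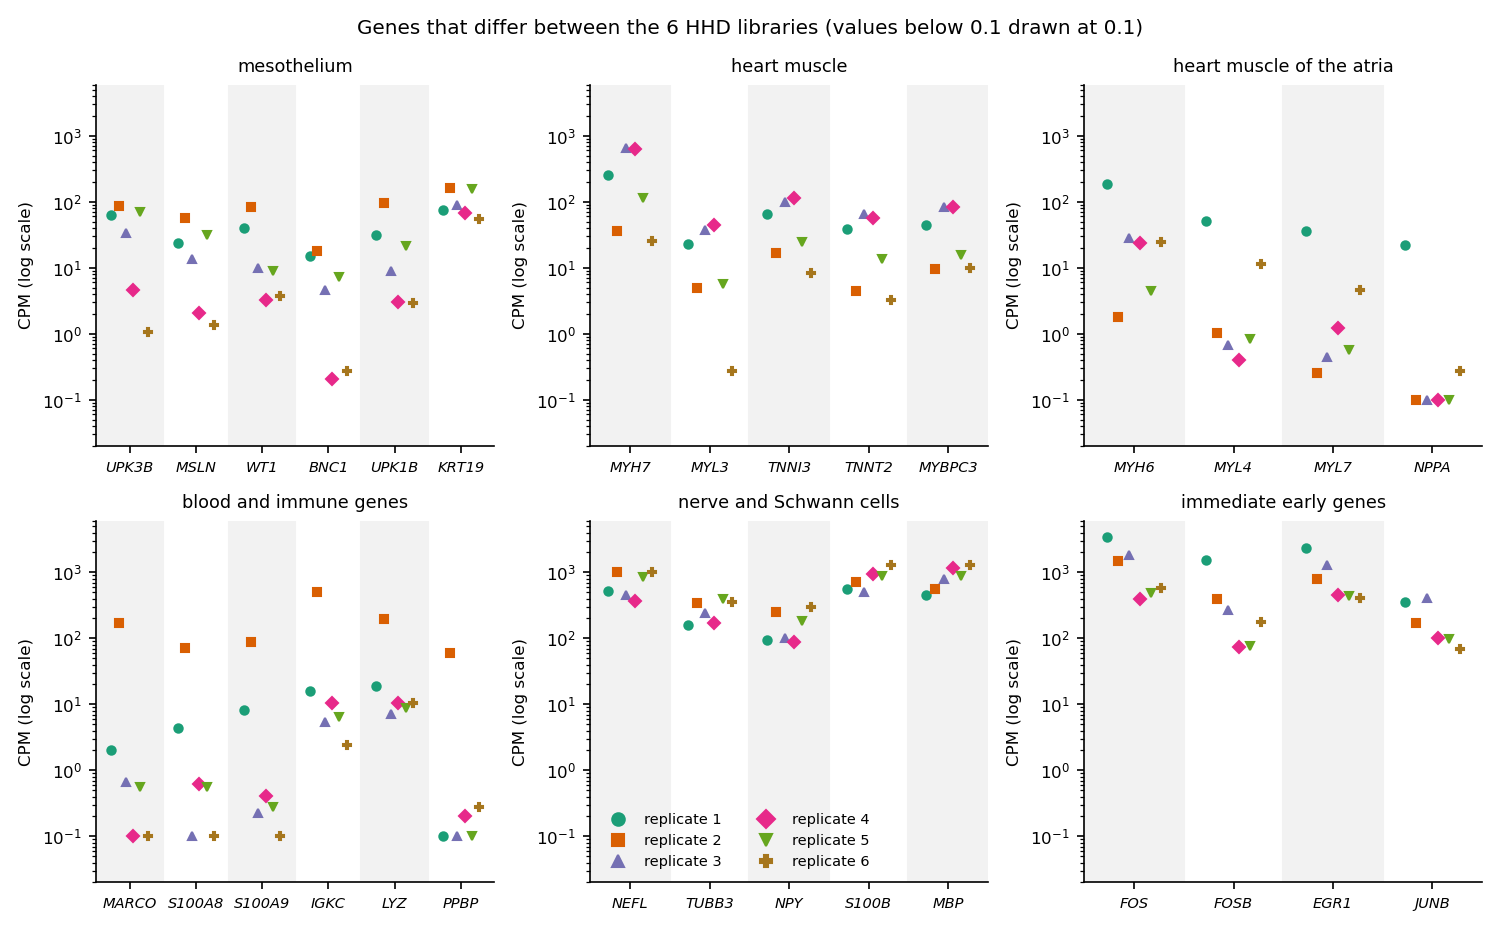
CPM (log axes) of genes from 6 groups, with a point for each HHD library and values below 0.1 CPM drawn at 0.1. The mesothelial genes UPK3B, MSLN, WT1, BNC1 and UPK1B are lowest in replicates 4 and 6. MYH7 is high in 1, 3 and 4, the atrial genes are highest in 1, and MARCO, S100A8, S100A9, IGKC, LYZ and PPBP are highest in 2.

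Macrophage genes led the immune compartment. All 21 were measured, with a median of 47.8 RPKM over the 20 members that have one. The complement genes C1QB, C1QC and C1QA, which tissue macrophages make, averaged 531 ± 269.8, 402 ± 258 and 337 ± 216 RPKM. CD163, the haemoglobin scavenger receptor, ranged from 121 through 234 to 326 CPM in the other table, while the exon table held no read of it. CSF1R, the receptor for the macrophage growth factor, averaged 116 ± 47.2 RPKM, and FOLR2, of resident macrophages, 105 ± 28.3 RPKM. CD68, a lysosomal protein, ranged from 27.0 through 55.5 to 86.4 CPM. The list was highest in replicate 2 and lowest in replicate 6, with a mean log2 CPM of 7.06 and 5.08 and the rest between 5.62 and 5.93. MARCO enters this score only through replicate 2, with a mean of 0.651 CPM without it, and so raises the value there. A score without MARCO was not computed.

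Antigen-presenting genes of MHC class II were all measured, 10 of 10. CD74, their chaperone, averaged 632 ± 139.6 RPKM and the chain SLA-DRA 528 ± 188 RPKM; reads of these related genes may be split between rows. Complement was broad, with 19 of 20 genes measured and a median of 106.5 RPKM. SERPING1, which inhibits C1, averaged 1193 ± 166 RPKM, C1S, a C1 protease, 429 ± 118 RPKM, C7, of the membrane attack complex, 379 ± 175 RPKM, and C3, the hub of the cascade, 346 ± 156 RPKM. C3 ranged from 831 through 1353 to 2785 CPM, highest in replicate 2.

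Most lymphocyte genes were low. Of 21 T and NK cell genes, 16 reached 1 CPM and 4 reached 5 CPM, with a median of 0.920 RPKM over the 20 members with an RPKM. CD247 and NKG7 led the list, at 31.2 ± 3.65 and 15.0 ± 5.38 CPM without replicate 2. CD3E, of the T cell receptor complex, ranged from 1.97 through 3.09 to 8.09 CPM, and CD8A, the co-receptor of killer cells, from 1.27 through 1.73 to 4.47 CPM. Of 14 B and plasma cell genes with a row, 9 reached 1 CPM and 5 reached 5 CPM, with a median of 1.37 RPKM over 12 members. MS4A1, a surface protein of B cells, averaged 0.228 ± 0.338 RPKM. CR2 and TNFRSF13C were higher, at 19.2 and 19.4 CPM without replicate 2. Of 10 thymus genes, 3 reached 1 CPM and 1 reached 5 CPM, with a median of 0.112 RPKM over the 7 members with an RPKM. DNTT averaged 0.395 ± 0.431 CPM and PTCRA had no read. CD1A of the same list was higher, at 11.3 ± 8.14 CPM without replicate 2. Mast cells were represented by TPSB2, a tryptase, at 30.5 ± 14.0 RPKM, MS4A2, of the IgE receptor, at 27.8 ± 7.94 RPKM and the growth factor receptor gene KIT at 7.44 ± 1.63 RPKM. CPA3 was listed at 0.

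Replicate 2 carried a set of blood and immune genes that the other libraries hardly held. MARCO, a scavenger receptor of macrophages, stood at 168 CPM there and at most 2.02 CPM elsewhere. S100A8 and S100A9, the calprotectin genes of neutrophils and monocytes, stood at 70.9 and 86.9 CPM, and elsewhere at most at 4.30 and 8.10 CPM, both in replicate 1. The immunoglobulin light chain rows IGKC and IGLC stood at 501 and 351 CPM against at most 15.9 and 9.87 CPM, and IGJ, which joins secreted antibodies, at 94.1 CPM against at most 8.60 CPM. Reads of immunoglobulin genes may be split between many copies. PPBP, a platelet chemokine, stood at 60.5 CPM against at most 0.281 CPM. LYZ, lysozyme, stood at 199 CPM against at most 19.2 CPM.

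Without replicate 2 the means of S100A8 and S100A9 were 1.09 and 1.80 CPM, below the minimum of 5 CPM for variable genes. NPG3, a pig antimicrobial protegrin, SERPINB2, a protease inhibitor of monocytes, and FCN1, a monocyte lectin, were highest in the same library, at 63.2, 74.8 and 147 CPM. Complement regulator genes C4BPA and CFI stood at 434 and 440.2 CPM against at most 53.1 and 135 CPM. MKI67, a protein of dividing cells, stood at 32.8 CPM against at most 9.96 CPM, and TOP2A, which untangles replicated DNA, at 38.7 CPM against at most 9.36 CPM. Of the hemoglobin genes, HBB stood at 292 CPM there and 333 CPM in replicate 1. HBA stood at 299 CPM there and 501 CPM in replicate 3. By contrast, the erythroid list members AHSP and SLC4A1 were highest there, and at most at 1.26 and 0.506 CPM elsewhere. The list of fat cell genes was lowest in replicate 2, with a mean log2 CPM of 7.45 against 7.68 to 8.31. Replicate 2 is also the only library marked with the letter B and the only library with the C mark C4. Whatever these unexplained marks stand for and its values cannot be told apart.

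Nerve was well represented. TUBB3, the tubulin of neurons, averaged 313 ± 106 RPKM (rank 166), above PECAM1 in mean but within the SD of it. NPY, the peptide of sympathetic nerves, averaged 241 ± 126 RPKM. NEFL and NEFM, the neurofilament subunits, ranged from 362 through 684 to 1020.0 CPM and from 254 through 479 to 687 CPM. STMN2, a growth protein of axons, ranged from 211 through 475 to 777 CPM, and PRPH, the filament of peripheral neurons, from 107 through 199.6 to 262 CPM. Replicates 2, 5 and 6 were above replicates 1, 3 and 4 for each of these 6 genes, which were picked from the neuronal list. The mean log2 CPM of the list had the same order, at 6.16, 6.14 and 6.40 against 5.42, 5.29 and 5.10. How many other members, or how many of all rows, separate these sets was not counted.

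Genes of both autonomic transmitters were detected. SLC18A3, which loads acetylcholine into vesicles, averaged 39.4 ± 18.4 RPKM, and CHAT, which makes it, 4.05 ± 2.40 RPKM. DBH, which makes noradrenaline, averaged 2.40 ± 0.935 CPM, and no row was matched to TH. VIP, a peptide of other autonomic neurons, had no unique read. Of the 20 neuronal genes with a row, 19 were measured and 17 reached 5 CPM, and none was variable by the rule.

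Schwann cells, which wrap axons, gave S100B at 521 ± 177 RPKM (rank 94) and MBP, a myelin protein, at 418 ± 152 RPKM. MAL, a protein of myelin membranes, averaged 139 ± 56.2 RPKM. All 15 Schwann cell genes with a row were measured. The list did not rank the libraries as the neuronal list did. Replicate 4 was lowest of 6 for the neuronal list (mean log2 CPM 5.10) and second highest for the Schwann cell list (7.01), whereas replicate 2 was at 6.16 and 6.36.

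Heart muscle RNA was found in every library in very unequal amounts. MYH7, the slow myosin of the ventricles, stood at 258, 665 and 629.7 CPM in replicates 1, 3 and 4, at 115 CPM in replicate 5, and at 36.6 and 25.6 CPM in replicates 2 and 6. TNNI3, cardiac troponin I, ranged from 8.37 through 45.2 to 112 CPM, TNNT2, cardiac troponin T, from 3.24 through 26.0 to 64.7 CPM, and MYBPC3, cardiac myosin-binding protein C, from 9.54 through 30.4 to 84.8 CPM. Replicates 1, 3 and 4 were the 3 highest libraries for all 4 genes, and also for MYL3, ACTC1 and CSRP3. TNNC1, another troponin gene, broke this order, with 43.3 CPM in replicate 5 and 29.4 CPM in replicate 3, as did the atrial genes below. Of the 17 cardiomyocyte genes at 5 CPM or more, 11 were variable, beside 1.60% of all rows at that level. Of these 11, 8 kept a mean of at least 5 CPM without their highest library. MYH7 averaged 237 ± 283 CPM without replicates 3 and 5.

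Genes of atrial muscle had another order. MYL4, the atrial essential light chain, stood at 51.9 CPM in replicate 1, 11.3 CPM in replicate 6 and at most 1.03 CPM in the other 4. MYL7, the atrial regulatory light chain, stood at 36.4 and 4.59 CPM in the same libraries and at most 1.22 CPM elsewhere. NPPA, atrial natriuretic peptide, gave 22.5 CPM in replicate 1 and 0.270 CPM, or 1 read, in replicate 6, with no read in the rest. MYH6, the fast cardiac myosin, stood at 184 CPM in replicate 1, between 23.6 and 28.6 CPM in replicates 3, 4 and 6, and at 1.81 and 4.50 CPM in replicates 2 and 5. Reads of MYH6 and MYH7 may be shared in part because the genes are close copies.

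Replicates 3 and 4 held the most MYH7 with almost no MYL4 or MYL7, and replicate 1 held both sets. Skeletal muscle was hardly present. MYH1, a fast skeletal myosin, averaged 0.0422 ± 0.103 CPM, no read of the muscle regulator MYOG was found, and no row was matched to MYH2. ACTA1, the skeletal actin that heart muscle also uses, followed MYH7, at 123, 152 and 178 CPM in replicates 1, 3 and 4, with no other library above 16.9 CPM. Where on the heart each piece was taken is not given, and the part of the dissection in these values was not tested.

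Of 21 transcription factors of position along the body or heart, 16 were measured. GATA4, a factor of heart and gut development, averaged 36.0 ± 5.64 RPKM, and NR2F2, of veins, atria and mesenchyme, 35.8 ± 2.33 RPKM. NR2F2 was steady, from 136 through 148 to 162 CPM. TBX5, a heart and forelimb factor, ranged from 11.1 through 20.4 to 27.9 CPM. HOXC9 and HOXC10, which mark subcutaneous fat of the hind body in other mammals, had no unique read in any library, and HOXA5, of the anterior trunk, averaged 2.42 ± 0.714 RPKM.

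Immediate early genes, which cells switch on soon after a stimulus, were high and uneven. FOS, a subunit of the factor AP-1, stood at 3450.3, 1489 and 1846 CPM in replicates 1, 2 and 3 and between 389 and 578 CPM in the rest. EGR1, a zinc finger factor, ranged from 414 through 625 to 2317 CPM and was likewise highest in replicates 1, 3 and 2. FOSB ranged from 74.2 through 223 to 1563 CPM, and JUNB from 69.1 through 136 to 409.8 CPM. Of the 14 members at 5 CPM or more, 5 were variable. PTGS2, the inducible prostaglandin synthase, stood at 112 CPM in replicate 1 against at most 23.2 CPM.

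Interferon-induced genes, by contrast, gave the steadiest of the 29 cell type and pathway lists. All 24 were measured, with a median of 14.2 RPKM over the 22 members with an RPKM. The mean log2 CPM lay between 4.45 and 4.77 in the 6 libraries. IFIT1, an antiviral RNA-binding protein, ranged from 34.8 through 38.5 to 46.0 CPM, and IFI44L from 112 through 139.5 to 149 CPM. MX2, an antiviral GTPase, was the most variable member, from 6.71 through 18.9 to 29.2 CPM, and RSAD2 ranged from 1.55 through 2.67 to 5.91 CPM.

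**Figure D4:**
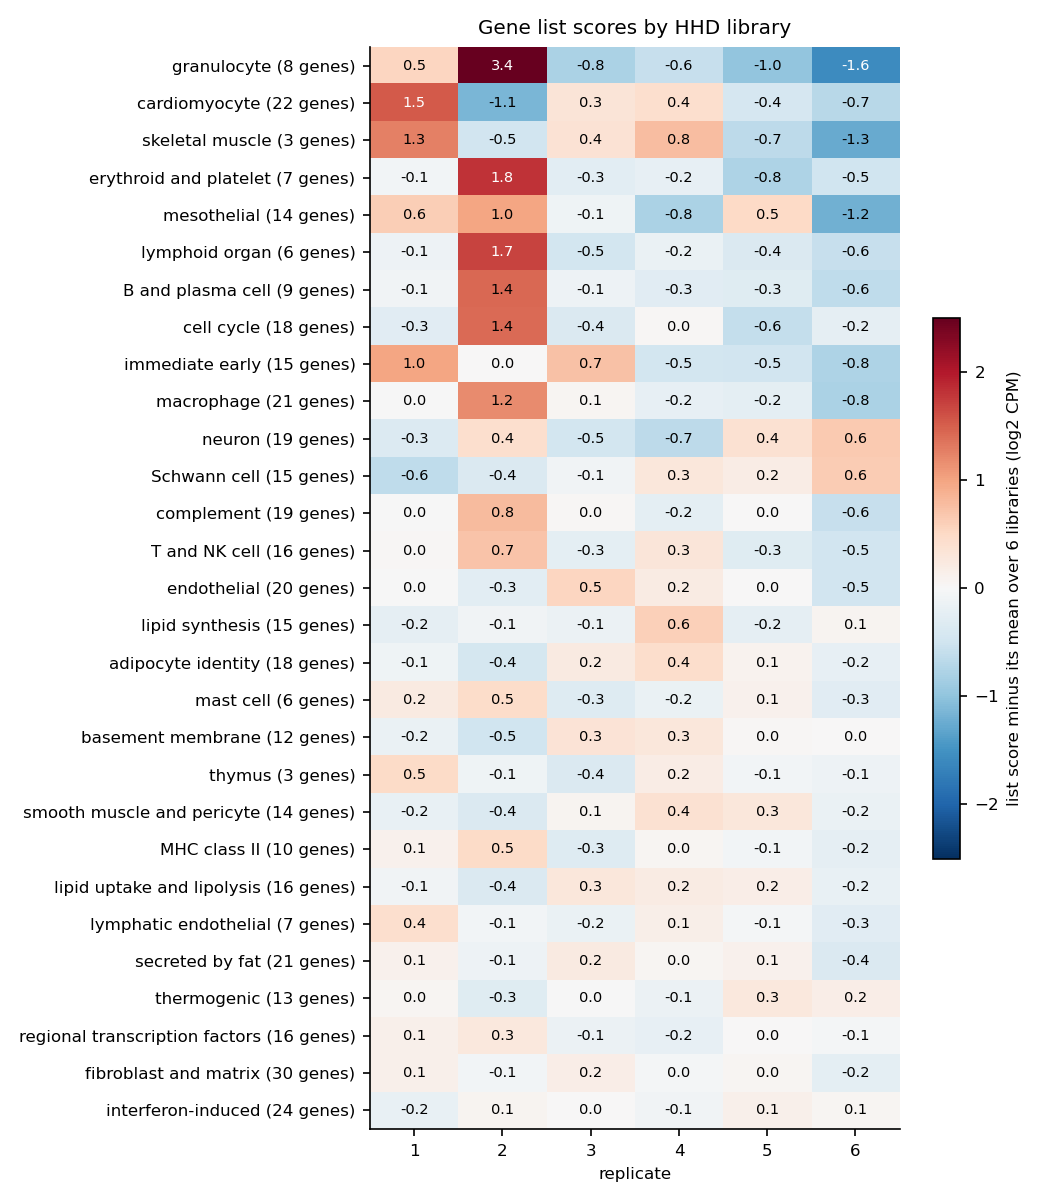
Difference of each list's mean log2 CPM from its mean over the 6 HHD libraries, for 29 lists ordered by SD, with the number of measured genes in parentheses. Replicate 2 has the highest granulocyte, erythroid and platelet, lymphoid organ, B cell and cell cycle values, and the interferon-induced and the fibroblast and matrix lists vary least.

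Over all genes the libraries were close. The median SD of log2 CPM among the 9862 rows at 5 CPM or more was 0.32, where counting alone would give a median of 0.12. By the rule of an SD of at least 1, 158 rows were variable (1.60%), of which 147 carried a name and 11 an Ensembl ID only. All 158 exceeded 2 times their own counting SD. The threshold of 1 made this likely in advance, since the median counting SD was 0.27 even for rows at 5 to 10 CPM. Variable genes were mostly low, and 25 of them reached 50 CPM.

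Variable rows were unevenly spread over the libraries. Replicate 2 was highest for 73 of the 158 rows, and 27 of these stood at least 4 times above the next library, as did 5 rows in replicate 1 and 2 rows in replicate 6. Replicate 3 was highest for 23 rows, replicate 1 for 21, replicate 4 for 18, replicate 6 for 17 and replicate 5 for 6. Replicate 6 was lowest for 74 rows. Without replicate 2 the count was 109, of which 96 were among the 158. Without replicates 3 and 5 it was 255, of which 145 were among the 158, and replicate 2 was then highest for 136. The minimum of 5 CPM applies to the mean over all libraries, so a row low elsewhere can enter through a single high library. MARCO, S100A8 and LTF entered through replicate 2, with means of 0.651, 1.09 and 1.24 CPM without it. At a minimum of 20 CPM, 26 of 70 variable rows were highest in replicate 2. How much of the count of 73 comes from this filter was not tested.

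Some variable genes belonged to no list. LGALS13, a galectin, stood at 105 CPM in replicate 4, between 18.1 and 40.2 CPM in replicates 3, 5 and 6, and near 0 in replicates 1 and 2. SLIT1, an axon guidance protein, was present in replicates 2, 4 and 6, at 22.4, 35.0 and 15.9 CPM, and at most 1.01 CPM elsewhere. PTN, the growth factor pleiotrophin, stood at 148 and 94.1 CPM in replicates 1 and 2 and at most 13.01 CPM elsewhere. SNCG, gamma-synuclein, stood at 113 CPM in replicate 6 and at most 10.9 CPM elsewhere. The class I MHC row SLA-B ranged from 54.7 through 378 to 691 CPM, low in replicates 1 and 6; the gene is highly polymorphic and has close copies, so reads may be lost to other rows. The lowest SD among named genes belonged to DTD1, which edits charged tRNA, at 36.3 ± 0.665 CPM, and RAB7A, of late endosomes, stood at 441 ± 11.9 CPM.

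**Figure D5:**
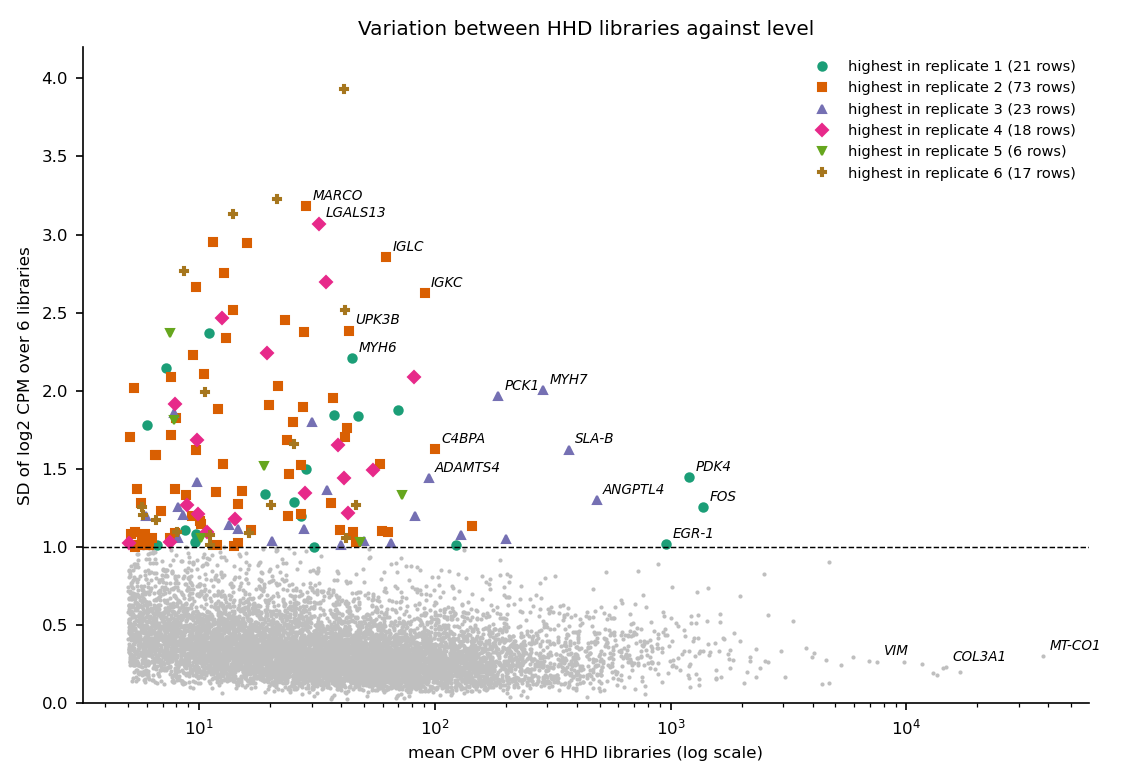
SD of log2 CPM over the 6 HHD libraries against mean CPM (log axis) for the 9862 rows at 5 CPM or more, with the threshold of 1 dashed and the 158 variable rows marked by the library in which they are highest. Abundant rows such as COL3A1 and MT-CO1 lie below 0.5, while PCK1, MYH7, PDK4 and FOS lie above the threshold.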

How the data were processed

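RNA from epicardial fat was isolated on columns, treated with DNase and made into libraries with a kit that does not mark strand (TruSeq RNA v2), per the labels' protocols. Tools named in the submitters' processing notes include bcl2fastq 2.17.1.14, with Sscrofa10.2 as the pig genome build; the aligner is not given in the sources used here. Per the file headers, the authors deposited 2 tables per library: unique exon read counts for 22861 rows, and RPKM with unique gene read counts for 10157 rows, whose gene set is not described further. Reads of overlapping genes on opposite strands cannot be told apart.

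Counts were scaled with edgeR 4.0.16 (TMM over all 20 libraries, R 4.3.3) and turned into CPM and log2 CPM with a prior count of 2; DESeq2 1.42.0 size factors were an alternative. The deposited RPKM was used as given. A list score is the mean log2 CPM of members with a mean of 1 CPM or more over the 6 libraries. Differences in depth leave 1 count worth 0.191 to 0.287 CPM, so values near that size rest on single reads. The calculation of variation was tested on simulated data. The diet label gave the group, and no comparison between groups was made.

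The libraries and the 31 gene lists (484 members) were chosen with earlier results of these data known. The rule for named genes took the 30 rows of highest mean CPM, the 20 of highest mean RPKM, the leading and most variable members of each list, and the 30 most and 10 least variable genes. Other genes named were chosen after their values were seen. A few genes are not reported here.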

Additional observations from a re-analysis of the deposited data

Results flagged for a closer look

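The highest or lowest of the 6 libraries was set against the rest, on log2 CPM, for 29 lists and the 236 genes named here or by the naming rule with at least 1 CPM. In 5 lists and 30 genes the gap to the nearest library was a larger share of the whole range than Dixon's critical value, which chance passes in about 1 in 20 groups. These genes were chosen in part for their variation, so their spread over libraries is not that of all genes. Over all 9862 rows at 5 CPM or more, 706 (7.16%) had a library apart by the same measure, which was replicate 3 in 350 of them, replicate 2 in 116 and replicate 1 in 111.

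In lists, replicate 2 was high for B and plasma cell genes (mean log2 CPM 3.56), lymphoid organ genes (5.73), erythroid and platelet genes (5.11) and cell cycle genes (4.11), and replicate 4 for lipid synthesis genes (8.13). Members enter a score by their mean over all libraries, so genes near 0 elsewhere can enter through replicate 2 and raise its score. PPBP, PF4 and CD79B did so, with means of 0.0968, 0.350 and 0.473 CPM without that library. HBB was not highest there, at 292 CPM against 333 CPM in replicate 1, whereas AHSP and SLC4A1 were.

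Among single genes, replicate 2 was high for IGKC (501 CPM), C4BPA (434 CPM), IGLC (351 CPM), LYZ (199 CPM), MARCO (168 CPM) and PPBP (60.5 CPM). It was also high for the neutrophil gene S100A12 (58.5 CPM), the chemokine gene AMCF-II (52.1 CPM), TOP2A (38.7 CPM) and RRM2 (32.4 CPM), which serves DNA synthesis. The platelet gene PF4 (28.3 CPM), the lymphocyte genes CD2 (26.6 CPM) and CD79B (3.87 CPM) and the spindle gene TPX2 (15.5 CPM) were high there as well. The same library was low for ADIPOQ (4648 CPM), TXNIP (1535 CPM), the matrix gene SPARCL1 (1429 CPM) and CD247 (13.2 CPM), a T cell receptor subunit.

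Replicate 3 was low for RPS15A (576 CPM), for the thymosin rows TMSB4 (1821 CPM) and TMSB4X (1849.6 CPM), and for HOXA5 (1.78 CPM). Replicate 4 was high for DGAT2 (2472 CPM) and CD8A (4.47 CPM) and low for PPARGC1A (1.82 CPM). Replicate 1 was high for the calcium pump gene ATP2A2 (341 CPM) and for NPPA (22.5 CPM). Replicate 6 was high for SNCG (113 CPM) and low for LYVE1 (64.5 CPM) and XIST (0.281 CPM).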

How the results depend on the processing

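The 158 variable rows, 73 of them highest in replicate 2, depended on the filter. They numbered 351 (173 highest in replicate 2) at a mean of at least 1 CPM, 70 (26) at 20 CPM and 402 (209) with no filter. Without replicates 3 and 5 together they numbered 255 (136). Leaving out 1 library at a time gave 109 to 204, the lowest without replicate 2 and the highest without replicate 5, and 80 to 101 of them were highest in replicate 2 where it was kept. Other scalings gave 155 to 159. The second table held 7063 measured rows in place of 12512, and 306 of its genes held 50% of counts in place of 468; fewer rows were tested there. Leaving out 1 library at a time gave 12444 to 12528 measured rows, 460.6 to 478.8 genes holding 50% of counts and 394 to 406 measured list members. Other scalings moved the mean CPM of the 236 named genes at 1 CPM or more by at most 1.035 times. Without replicate 2, 30 of these moved by over 1.5 times, against 7 without replicate 1, 5 without replicate 6, 2 without replicate 4, 1 without replicate 3 and 0 without replicate 5; the second table moved 35 of 129. No paired analysis was possible because 1 group was described and no test was made. Depth limits genes near 1 CPM, which rest on a few reads.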
